A study of Homo sapiens with 18 samples.

Results

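Messenger RNA of 10 genes that build, lengthen, desaturate and activate fatty acids was followed in 3 cholangiocarcinoma cell lines with and without a hairpin against RNF213. The genes were chosen by name (ACLY, ACACA, FASN, SCD, ELOVL5, ELOVL6, FADS1, FADS2, ACSL3 and ACSL4), and all 10 were found among the 36601 gene IDs of each library. In this pathway ACLY splits citrate into cytosolic acetyl-CoA, ACACA carboxylates it to malonyl-CoA, and FASN joins these units into palmitate. ELOVL6 lengthens palmitate to stearate and SCD places a double bond in it to give oleate, while FADS2, ELOVL5 and FADS1 act in turn on dietary polyunsaturated fatty acids on the way to arachidonate. ACSL3 and ACSL4 couple finished fatty acids to coenzyme A, ACSL4 with a preference for arachidonate. Most of these genes are known targets of the SREBP transcription factors, which INSIG1 holds back in the endoplasmic reticulum when sterols are plentiful.

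Polyadenylated RNA was sequenced in 18 libraries, 3 for each hairpin in KKU-100 (tissue label biliary tract), YSCCC (liver) and HuCCT1 (bile duct). In every line, cultures that stably carried a lentiviral hairpin against RNF213 (shRNF213, number 2 in the labels, genotype RNF213 knockdown) were set against cultures with a control hairpin (shControl, genotype WT), so both groups carry a vector. RNF213 encodes a very large ubiquitin ligase with an ATPase core. KKU-100 was grown in Ham's F12 and YSCCC and HuCCT1 in RPMI-1640, so line and medium cannot be told apart for KKU-100. The knockdown rests on 1 hairpin per line, and the 3 replicates of a group are given by the series as biological replicates of that stable culture.

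Library totals ran between 21056732 and 25502097 counts. RNF213 was lower in shRNF213 in 9 of 9 replicate pairs, and the fitted log2 fold change was −0.97 (SE 0.15, adjusted p = 0.0462) in KKU-100, −1.16 (SE 0.13, adjusted p = 0.000307) in YSCCC and −0.89 (SE 0.18, adjusted p = 0.136) in HuCCT1, where it did not pass. In HuCCT1 the groups overlapped, with 277, 423 and 284 CPM (counts scaled to a common library total) in shRNF213, against 394, 1260 and 430 CPM in shControl. The epithelial keratins KRT7, KRT8 and KRT18 were read in all lines, whereas KRT19 and EPCAM, which mark bile duct epithelium, were at or below 0.179 and 0.133 CPM in every KKU-100 library. The 7 hepatocyte markers summed to 9.21 to 28.6 CPM in KKU-100, 2.85 to 13.9 CPM in YSCCC and 202 to 281 CPM in HuCCT1, nearly all of it SERPINA1 (202 to 280 CPM in HuCCT1), while ALB stayed at or below 0.289 CPM. The 5 leukocyte markers summed to at most 0.755 CPM in KKU-100, 8.26 CPM in YSCCC and 3.70 CPM in HuCCT1, and the 5 adipocyte markers to at most 10.0 CPM in any line. Of the 3 endothelial markers, the cadherin CDH5 was read at 13.9 to 94.5 CPM in YSCCC and at most 0.608 CPM in the other lines. The other markers of that list did not follow it. PECAM1 had 0.981 to 3.82 CPM in YSCCC and 1.76 to 5.86 CPM in KKU-100. VWF had 0.145 to 0.884 CPM in YSCCC and 2.40 to 3.74 CPM in HuCCT1. The 6 fibroblast markers summed to 40.5 to 254 CPM in YSCCC, with LUM at 29.7 to 238 CPM, and to at most 41.2 CPM in the other lines. Besides LUM, only DCN of that list was highest in YSCCC (2.26 to 3.35 CPM). COL1A1 had 15.5 to 23.6 CPM in HuCCT1 and 4.11 to 15.1 CPM in YSCCC. COL3A1 reached 34.1 CPM in KKU-100 and 10.9 CPM in YSCCC, and COL1A2 and PDGFRB also reached their highest levels in KKU-100. Cultures of 1 line also differed. The summed level of 22 interferon-stimulated genes was 9884 (shRNF213) and 9854 CPM (shControl) in replicate 2 of HuCCT1, against 930 to 1596 CPM in its other libraries. The summed level of 22 endoplasmic reticulum chaperone and ATF4 response genes was 7533 (shRNF213) and 9310 CPM (shControl) in replicate 3 of YSCCC, against 3901 to 4471 CPM in its other libraries. The KKU-100 libraries had 9623 to 17105 CPM of the interferon-stimulated genes and 8428 to 11226 CPM of the chaperone and ATF4 genes. Such levels were thus not confined to the single cultures named. The part of these states in the results below was not tested. In bulk RNA, fewer cells that carry a transcript and less of it per cell cannot be told apart.

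The levels of the 10 genes in shControl cultures were compared first, to show how the steps are expressed in each line. By TPM, which is per transcript length, SCD was the most abundant of the 10 in every line, with 827 ± 543 TPM in KKU-100, 403 ± 191 TPM in YSCCC and 604 ± 149 TPM in HuCCT1 (SD, n = 3 each). In KKU-100 it was followed by ELOVL5 (203 ± 18.5 TPM), then FASN, ACLY and ACSL3, whose neighbouring ranges overlapped, then ACACA and ACSL4, which also overlapped, and ELOVL6 at 16.8 ± 1.12 TPM. In YSCCC FASN came second (374 ± 168 TPM) and overlapped with SCD. In HuCCT1 ACLY came second (242 ± 43.1 TPM). FADS2 was last in YSCCC (12.2 ± 8.77 TPM) and in HuCCT1 (32.9 ± 10.1 TPM), whereas in KKU-100 FADS2 (1.43 ± 0.647 TPM) stood above FADS1 (0.123 ± 0.0809 TPM). The authors' FPKM gave the same order of the 10 genes in each line.

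**Figure D1:**
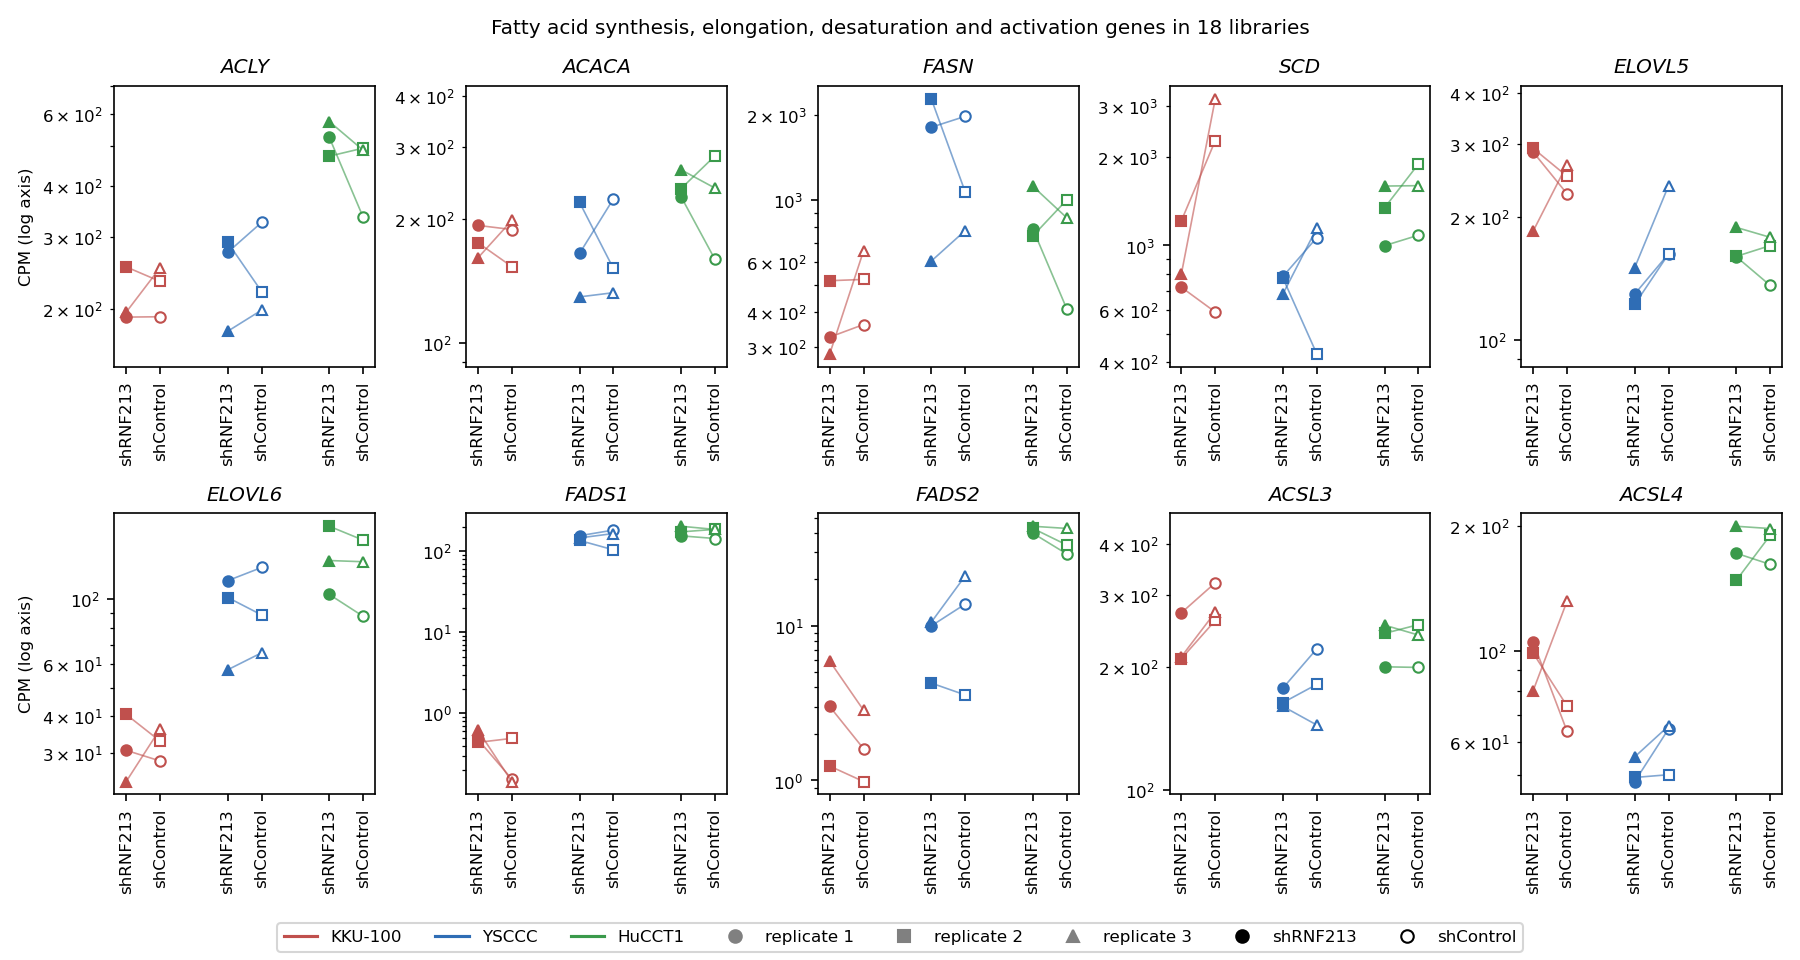
CPM (log axis) of the 10 genes in each of the 18 libraries, shRNF213 filled and left, shControl open and right of it, with a line joining each replicate pair and the marker giving the replicate number. FADS1 sits below 1 CPM in all 6 KKU-100 libraries and above 100 CPM in all 12 others, and the pairs of FASN in YSCCC and HuCCT1 and of SCD in KKU-100 and YSCCC slope in both directions.

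Between lines, 5 of the 10 genes passed the test for KKU-100 over YSCCC, 6 for KKU-100 over HuCCT1 and 3 for YSCCC over HuCCT1. Of all genes tested, 60.7%, 57.4% and 58.4% passed in these comparisons, so the shares among the 10 genes were near or below those of any gene and the counts are no result about the pathway. The single genes differed widely in size.

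FADS1 (ENSG00000149485, chr11:61799627-61829318, minus strand), the desaturase that forms arachidonate, was nearly unread in KKU-100. It had 3, 11 and 3 counts in KKU-100 shControl (0.155, 0.492 and 0.145 CPM), against 182, 104 and 165 CPM in YSCCC and 143, 186 and 185 CPM in HuCCT1. The shRNF213 cultures of KKU-100 held 10, 11 and 14 counts, so the low level was common to all 6 libraries of the line. The log2 fold change was −9.06 (SE 0.42, adjusted p = 1.36e-07) for KKU-100 over YSCCC and −9.29 (SE 0.43, adjusted p = 1.56e-07) for KKU-100 over HuCCT1. YSCCC and HuCCT1 overlapped (log2 fold change −0.22, SE 0.27, adjusted p = 0.501).

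FADS2 (ENSG00000134824, chr11:61792980-61867354, plus strand), the desaturase that opens the route from linoleate, was graded over the lines. It measured 1.60, 0.984 and 2.85 CPM in KKU-100 shControl, 13.8, 3.57 and 20.96 CPM in YSCCC and 29.1, 33.3 and 42.5 CPM in HuCCT1, and no 2 of these ranges overlapped. The log2 fold change was −2.79 (SE 0.59, adjusted p = 0.00212) for KKU-100 over YSCCC, −4.28 (SE 0.62, adjusted p = 0.000209) for KKU-100 over HuCCT1 and −1.49 (SE 0.54, adjusted p = 0.0352) for YSCCC over HuCCT1. The last of these lost its call without any 1 of the 3 HuCCT1 libraries or without YSCCC replicate 1 or 2, with adjusted p between 0.0519 and 0.0981. FADS1 and FADS2 share 490 bases of exon on opposite strands in GENCODE 29, and no source states whether counting used strand, so reads there cannot be assigned to 1 of them with certainty.

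FADS1 and FADS2 are neighbours on chromosome 11, and their start windows are shown because both genes were low in the same line. In the RefSeq (GRCh38.p14) transcripts used for the windows, the 2 genes are read towards each other from starts 599 or 800 bases apart, depending on the FADS2 transcript. The gene ends given above reach farther out, so this arrangement and these distances hold for those RefSeq transcripts only. Which FADS2 start the cultures used was not tested, so the FADS2 windows need not be those of its main transcript. Each window runs from 250 bases before the start to 50 after it, on the gene's own strand, chr11:61816954-61817253 (minus) for FADS1 and chr11:61816154-61816453 (plus) for the FADS2 transcript nearer to it. Capitals mark the CCAAT box found by script, on either strand.
FADS1: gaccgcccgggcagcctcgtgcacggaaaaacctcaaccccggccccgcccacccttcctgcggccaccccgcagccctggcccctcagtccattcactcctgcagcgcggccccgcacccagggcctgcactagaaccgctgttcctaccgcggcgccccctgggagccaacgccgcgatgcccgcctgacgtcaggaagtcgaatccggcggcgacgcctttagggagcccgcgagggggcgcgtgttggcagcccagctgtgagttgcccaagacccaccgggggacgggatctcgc
FADS2: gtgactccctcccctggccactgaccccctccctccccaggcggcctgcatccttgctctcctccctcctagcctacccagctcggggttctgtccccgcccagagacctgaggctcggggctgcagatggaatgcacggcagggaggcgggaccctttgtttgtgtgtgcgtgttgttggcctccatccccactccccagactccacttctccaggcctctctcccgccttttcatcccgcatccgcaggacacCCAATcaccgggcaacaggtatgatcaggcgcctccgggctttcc
The FADS2 window holds a CCAAT match 6 bases after the start and the FADS1 window none. Windows of this kind were found for 9 of the 10 genes, all but FASN, 13 windows in all. The 2 ACLY windows overlap and hold the same CCAAT sites, so the 13 are not separate. On both strands 3 motifs were searched, none of which holds another. CCAAT occurred in 34.6% of all 35116 windows and in 8 of these 13 (6 genes), the E-box CACGTG in 7.26% of all and in 1 of the 13, and the sterol regulatory element TCACNCCAC in 1.13% of all and in 0 of the 13.

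Neighbours of the pair were read in KKU-100. FADS3, the other desaturase gene of the cluster, had 42.6, 65.9 and 66.8 TPM in KKU-100 shControl, 112, 74.1 and 230 TPM in YSCCC and 67.9, 36.1 and 51.0 TPM in HuCCT1. TMEM258 and FEN1, on the other side, were chosen after their values were seen. TMEM258 had 175, 162 and 148 TPM in KKU-100 shControl, 121, 127 and 177 TPM in YSCCC and 197, 215 and 171 TPM in HuCCT1. FEN1, a nuclease of DNA replication that overlaps FADS2 by 49 exon bases on the same strand, was lower in KKU-100, with 34.6, 23.5 and 23.0 TPM, against 114, 124 and 56.5 TPM in YSCCC and 112, 162 and 213.2 TPM in HuCCT1 (log2 fold change by counts −1.68, SE 0.35, adjusted p = 0.00184 over YSCCC, and −2.61, SE 0.36, adjusted p = 0.000146 over HuCCT1).

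**Figure D2:**
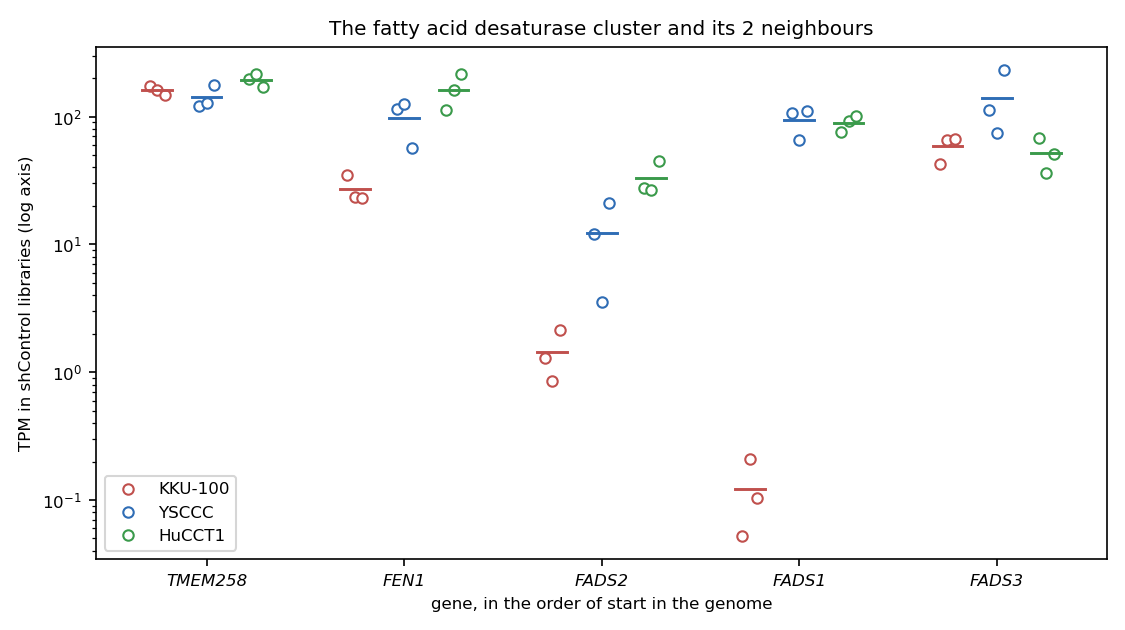
TPM (log axis) in the 9 shControl libraries for the 3 desaturase genes of the chromosome 11 cluster and the 2 genes beside them, in order of start, with points for libraries and bars for means. In KKU-100 FADS1 lies at 0.0525 to 0.211 TPM and FADS2 at 0.860 to 2.13 TPM, and the other 3 genes at 23.0 TPM or more.

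Among the elongation enzymes, ELOVL6 (ENSG00000170522, chr4:110045846-110199199, minus strand) was lowest in KKU-100, with 28.2, 32.9 and 36.2 CPM in shControl, against 128, 88.3 and 65.7 CPM in YSCCC and 87.3, 158 and 134 CPM in HuCCT1. Its log2 fold change was −1.51 (SE 0.28, adjusted p = 0.000893) over YSCCC and −1.97 (SE 0.28, adjusted p = 0.000188) over HuCCT1, and YSCCC and HuCCT1 overlapped. ELOVL5 (ENSG00000012660, chr6:53267398-53349179, minus strand) ran the other way. It had 227.4, 250.9 and 267.8 CPM in KKU-100, 162, 162 and 238 CPM in YSCCC and 136, 170 and 178 CPM in HuCCT1. KKU-100 exceeded HuCCT1 by 0.62 on the log2 scale (SE 0.19, adjusted p = 0.0183), a call lost without HuCCT1 replicate 1 (adjusted p = 0.0726) or KKU-100 replicate 3 (adjusted p = 0.0558). ELOVL2, an elongase of longer polyunsaturated chains, was read at 4.67, 4.49 and 2.32 CPM in YSCCC shControl and at no more than 1 count in any KKU-100 or HuCCT1 shControl library.

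Of the enzymes that make palmitate, FASN (ENSG00000169710, chr17:82078338-82098294, minus strand) was highest in YSCCC on average. It had 361, 522 and 659 CPM in KKU-100 shControl, 1980, 1070 and 777 CPM in YSCCC and 411, 999 and 864 CPM in HuCCT1. KKU-100 was below YSCCC (log2 fold change −1.29, SE 0.41, adjusted p = 0.0189), but not without YSCCC replicate 1 (−0.83, adjusted p = 0.0892) or KKU-100 replicate 1 (−1.08, adjusted p = 0.0691). YSCCC passed over HuCCT1 without YSCCC replicate 3 (1.01, adjusted p = 0.0492), against 0.72 (SE 0.40, adjusted p = 0.149) with it. ACLY (ENSG00000131473, chr17:41866917-41930542, minus strand) was lower in both other lines than in HuCCT1, with 192, 234 and 252 CPM in KKU-100 and 326, 221 and 199 CPM in YSCCC, against 335, 494 and 488 CPM in HuCCT1. Its log2 fold change over HuCCT1 was −0.97 (SE 0.23, adjusted p = 0.00490) in KKU-100 and −0.85 (SE 0.23, adjusted p = 0.00935) in YSCCC. ACACA (ENSG00000278540, chr17:37084992-37406836, minus strand) overlapped in all 3 pairs of lines, with 153 to 199 CPM in KKU-100, 133 to 224 CPM in YSCCC and 160 to 286 CPM in HuCCT1.

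SCD (ENSG00000099194, chr10:100347233-100364826, plus strand) overlapped in every pair of lines. It had 592, 2283 and 3172 CPM in KKU-100 shControl, 1065, 426 and 1148 CPM in YSCCC and 1084, 1898 and 1601 CPM in HuCCT1. KKU-100 over YSCCC gave 1.22 on the log2 scale (SE 0.54, adjusted p = 0.0740), and 1.66 (adjusted p = 0.00668) without KKU-100 replicate 1, whose SCD was the lowest of its line.

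The acyl-CoA synthetases differed in opposite ways. ACSL4 (ENSG00000068366, chrX:109624244-109733403, minus strand) was highest in HuCCT1, with 63.9, 73.5 and 132 CPM in KKU-100 and 64.7, 50.1 and 65.8 CPM in YSCCC, against 162, 190 and 197 CPM in HuCCT1. The log2 fold change over HuCCT1 was −1.04 (SE 0.26, adjusted p = 0.00560) in KKU-100 and −1.64 (SE 0.26, adjusted p = 0.000389) in YSCCC. ACSL3 (ENSG00000123983, chr2:222860942-222944639, plus strand) was highest in KKU-100, with 321, 260 and 272 CPM there, 222, 181 and 144 CPM in YSCCC and 200, 254 and 239 CPM in HuCCT1, and passed for KKU-100 over YSCCC (0.67, SE 0.19, adjusted p = 0.0115) but not over HuCCT1, whose range lay just below (0.29, SE 0.19, adjusted p = 0.207). Of the other synthetases, ACSL5 was lower in KKU-100 (−3.98, SE 0.49, adjusted p = 7.25e-05) and in YSCCC (−3.70, SE 0.48, adjusted p = 0.000115) than in HuCCT1. ACSL1 was higher in YSCCC than in HuCCT1 (0.93, SE 0.21, adjusted p = 0.00357), and KKU-100 was lower than YSCCC (−1.16, SE 0.21, adjusted p = 0.000919).

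Some regulators and partners also differed between lines. CD36, a fatty acid uptake receptor, was read at 306, 415 and 62.6 CPM in YSCCC shControl, against 0.895 to 4.49 CPM in KKU-100 and 0 to 0.0817 CPM in HuCCT1. MLXIPL, the carbohydrate-responsive transcription factor ChREBP, had 8 or 9 counts in each KKU-100 shControl library and was lower there than in YSCCC (−3.35, SE 0.51, adjusted p = 0.000289) and HuCCT1 (−1.80, SE 0.51, adjusted p = 0.0120). SREBF1 and SREBF2, which encode the SREBPs, did not pass in any of the 3 pairs of lines, with log2 fold changes between −0.055 and 0.59.

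The effect of the hairpin was then tested within each line, with the replicate number as the pair. Of the 10 genes, none of the 9 tested passed in KKU-100, 1 of 10 passed in YSCCC and none of 10 in HuCCT1, where 0.443%, 8.25% and 0.14% of all genes passed. FADS1 was too low for the test in KKU-100. At an unadjusted p below 0.05 there were 3, 3 and 1 of the 10 genes, as against 2391, 3876 and 1743 of 14915, 16932 and 15747 genes tested. The median log2 fold change of the tested members was −0.057 in KKU-100, −0.077 in YSCCC and 0.10 in HuCCT1, beside medians of all genes of 0.000172, 0.00545 and −0.00151. DESeq2 and limma-voom also called none of them in KKU-100 and HuCCT1 and ELOVL5 alone in YSCCC.

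ELOVL5, the elongase of polyunsaturated fatty acids, was lower in shRNF213 cultures of YSCCC. It had 129, 122 and 150 CPM in shRNF213, against 162, 162 and 238 CPM in shControl, and the groups did not overlap. The log2 fold change was −0.47 (SE 0.096, adjusted p = 0.0103), with all 3 pairs lower by 0.33 to 0.66 on that scale. The call did not hold without the pairing (−0.49, SE 0.20, adjusted p = 0.999) or without replicate 1 (−0.54, SE 0.12, adjusted p = 0.0542). Without replicate 3, the culture with high chaperone and ATF4 genes and the highest ELOVL5 in both groups, it was −0.37 (adjusted p = 0.0268). In KKU-100 the pairs were higher, higher and lower, at 0.34, 0.23 and −0.54, and the fit gave 0.0077 (SE 0.18). In HuCCT1 it gave 0.075 (SE 0.088). The difference of the ELOVL5 effect between KKU-100 and YSCCC was 0.48 (SE 0.20, adjusted p = 0.223) and that between YSCCC and HuCCT1 −0.54 (SE 0.20, adjusted p = 0.422), so the lines were not shown to differ.

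The start window of ELOVL5 (RefSeq, chr6:53348901-53349200, minus strand, GRCh38.p14) is shown because it was the member called. It holds the E-box CACGTG at base −211 and CCAAT matches, as ATTGG on the opposite strand, at bases −122 and −68 from the start, all in capitals.
ELOVL5: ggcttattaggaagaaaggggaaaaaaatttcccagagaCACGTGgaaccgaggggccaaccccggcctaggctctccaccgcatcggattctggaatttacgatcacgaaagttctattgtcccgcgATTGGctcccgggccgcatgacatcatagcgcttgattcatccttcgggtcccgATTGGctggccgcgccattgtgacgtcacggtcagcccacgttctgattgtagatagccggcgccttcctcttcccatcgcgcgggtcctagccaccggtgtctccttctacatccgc

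FADS2 lay on opposite sides of its control in KKU-100 and YSCCC, at low counts, with 1 exception among the pairs. In KKU-100 it had 3.01, 1.24 and 5.90 CPM in shRNF213 (63, 31 and 133 counts), against 1.60, 0.984 and 2.85 CPM in shControl (31, 22 and 59 counts), and was higher in 3 of 3 pairs (log2 fold change 0.80, SE 0.27, adjusted p = 0.226). In YSCCC it had 9.97, 4.26 and 10.5 CPM in shRNF213, against 13.8, 3.57 and 20.96 CPM in shControl (−0.47, SE 0.20, adjusted p = 0.174). In HuCCT1 it had 39.6, 42.6 and 43.9 CPM in shRNF213, against 29.1, 33.3 and 42.5 CPM in shControl, and was higher in 3 of 3 pairs (0.28, SE 0.10, adjusted p = 0.392). No line passed alone, and in each the groups overlapped. The difference of the effects, KKU-100 minus YSCCC, was 1.31 (SE 0.32, adjusted p = 0.0445). It was the 1 member of 10 called there, where 2.63% of all genes were called, and the call held without KKU-100 replicate 2 or YSCCC replicate 2 but was lost without any other 1 of the 9 pairs (adjusted p between 0.0605 and 0.156). No member was called for KKU-100 minus HuCCT1 or YSCCC minus HuCCT1, where 0.235% and 0.047% of all genes were. In those 2 comparisons 1 member (ACSL3) and 2 members (ELOVL5 and FADS2) had an unadjusted p below 0.05. Of all 19143 genes tested, 2391 and 1690 did.

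SCD and FASN showed the widest pair-to-pair spread among the members read above 10 CPM in every library. In KKU-100 SCD had 720, 1216 and 801 CPM in shRNF213, against 592, 2283 and 3172 CPM in shControl, so that the first pair was higher and the other pairs lower (log2 fold change −0.88, SE 0.36, adjusted p = 0.292). Without replicate 1 it was −1.44 (SE 0.24, adjusted p = 0.0309), and without replicate 3 −0.31 (adjusted p = 0.727). In YSCCC SCD had 784, 773 and 683 CPM in shRNF213, against 1065, 426 and 1148 CPM in shControl (−0.12, SE 0.22), and the controls lay on both sides of the shRNF213 cultures. Without YSCCC replicate 2, whose control was the low one, it was −0.60 (adjusted p = 0.0173). Without YSCCC replicate 1, and also without YSCCC replicate 3, the fitted value of SCD turned positive. In HuCCT1 it had 999, 1345 and 1596 CPM in shRNF213, against 1084, 1898 and 1601 CPM in shControl (−0.21, SE 0.11, adjusted p = 0.499), lower in 3 of 3 pairs with groups that overlapped. Over the 9 pairs SCD was lower in 7, by as much as 1.99 on the log2 scale, and higher in 2, by up to 0.86.

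FASN had 325, 516 and 283 CPM in shRNF213 against 361, 522 and 659 CPM in shControl of KKU-100 (−0.46, SE 0.23, adjusted p = 0.365), lower in 3 of 3 pairs but in the second by 0.015 only. In YSCCC it had 1812, 2288 and 606 CPM in shRNF213, against 1980, 1070 and 777 CPM in shControl (0.20, SE 0.20, adjusted p = 0.611). In HuCCT1 it had 789, 744 and 1118 CPM in shRNF213, against 411, 999 and 864 CPM in shControl (0.30, SE 0.20, adjusted p = 0.606). The groups overlapped in every line. Without HuCCT1 replicate 2, the interferon-high pair, FASN was 0.65 (adjusted p = 0.00386) and ACLY 0.44 (adjusted p = 0.0246) higher in shRNF213. Without YSCCC replicate 3, FASN was 0.48 higher (adjusted p = 0.0201). Its direction depended on the pair left out, because the fitted value of FASN turned negative without HuCCT1 replicate 1 and without YSCCC replicate 2.

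**Figure D3:**
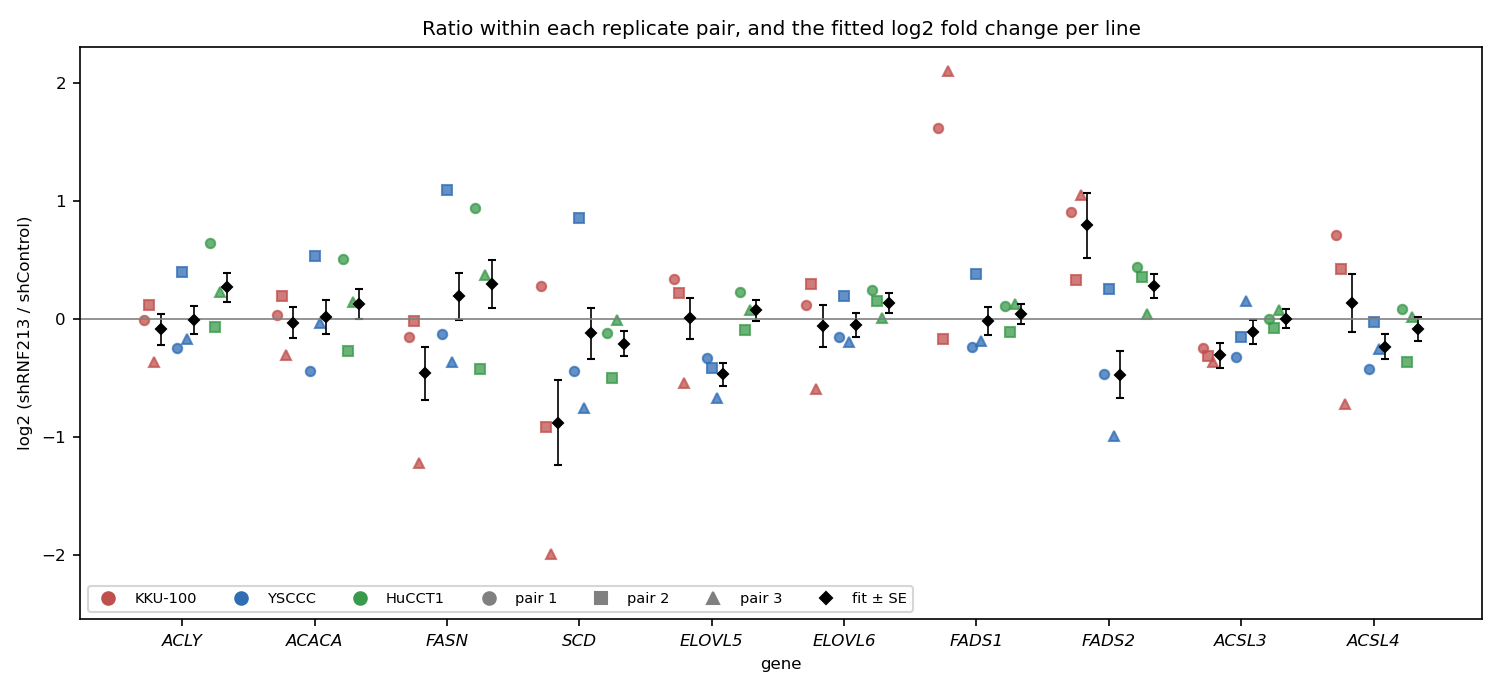
Log2 ratio of shRNF213 to shControl CPM in each of the 9 replicate pairs (coloured markers by line and pair) with the fitted log2 fold change ± SE (black diamonds, 3 replicate pairs each). The pairs of FASN run between −1.22 and 1.10 and those of SCD between −1.99 and 0.86, and the 3 YSCCC pairs of ELOVL5 lie between −0.66 and −0.33. FADS1 in KKU-100 has no diamond because it was not tested.

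No other member passed. ACSL3 was lower in 3 of 3 KKU-100 pairs, with 271, 210 and 212 CPM in shRNF213, against 321, 260 and 272 CPM in shControl (−0.31, SE 0.11, adjusted p = 0.244). ACSL4 was lower in 3 of 3 YSCCC pairs, with 48.3, 49.4 and 55.4 CPM in shRNF213, against 64.7, 50.1 and 65.8 CPM in shControl (−0.23, SE 0.11, adjusted p = 0.212). In KKU-100 the ACSL4 pairs ran in both directions, between −0.72 and 0.72. ACLY, ACACA, ELOVL6 and, where tested, FADS1 had fitted log2 fold changes between −0.084 and 0.27 in the 3 lines, none of which passed. Averaged over the lines, 0 of the 10 genes passed edgeR's test and 2.9% of all genes did, and DESeq2 and limma-voom called none of the 10. At an unadjusted p below 0.05 there was 1 member (ACSL3, −0.13, SE 0.056, adjusted p = 0.238), beside 3261 of all 19143 genes tested.

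The direction of each pair was also set beside that of the sterol response genes in the same cultures. The summed level of 18 sterol response genes, such as SQLE and LSS, was 806, 973 and 663 CPM in shRNF213 against 658, 1329 and 1733 CPM in shControl of KKU-100. In YSCCC it was 2708, 2234 and 1750 CPM in shRNF213 against 3076, 1755 and 2349 CPM in shControl, and in HuCCT1 2851, 3506 and 3722 CPM against 2175, 4094 and 3383 CPM. Thus shRNF213 was above shControl in the first KKU-100 pair, the second YSCCC pair and the HuCCT1 pairs 1 and 3, and below it in the others. Of the 9 pairs, FASN and ACACA went in the same direction as this sum in 8, ACLY, SCD, ELOVL5, ELOVL6 and ACSL4 in 7, FADS2 and ACSL3 in 6, and INSIG1 in 5. FADS1, too low in KKU-100 to give a direction there, did so in 6 of the 6 other pairs. Among 10572 genes outside the sum with a mean of at least 10 CPM, 1.03% shared its direction in at least 8 pairs, 6.64% in at least 7 and 22.5% in at least 6. These counts are a description over 9 pairs in which gene and sum come from the same libraries. In the fits, 17 of 17 sterol response genes tested in KKU-100 had a negative log2 fold change, with a median of −0.55, but none passed, and 8 (47.1%) had an unadjusted p below 0.05, beside 2391 of all 14915 genes tested there. In YSCCC 12 of 18 and in HuCCT1 4 of 18 were negative, with medians of −0.072 and 0.082 and none passing. At an unadjusted p below 0.05 were 3 (16.7%, beside 22.9% of all genes) in YSCCC and 2 (11.1%, beside 11.1% of all genes) in HuCCT1. In shControl, 13 of the 18 were lower in KKU-100 than in HuCCT1 and none higher, where 57.4% of all genes passed in either direction. Set against YSCCC, 8 were lower and 1 higher in KKU-100, where 60.7% of all genes passed in either direction.

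**Figure D4:**
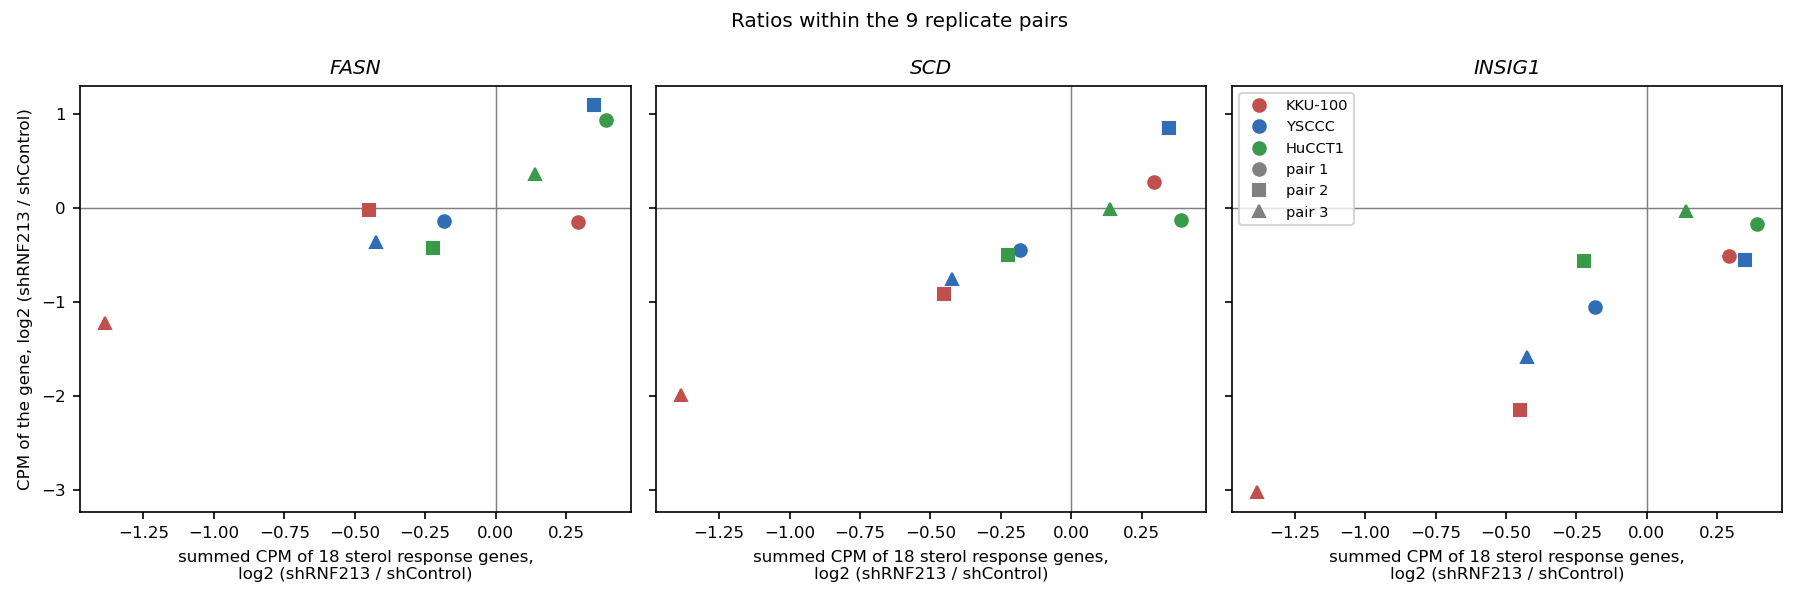
Log2 ratio of shRNF213 to shControl for FASN, SCD and INSIG1 (vertical axes) against that of the summed CPM of 18 sterol response genes (horizontal axes), 1 point per replicate pair. The third KKU-100 pair is lowest on both axes in each panel, FASN shares the sign of the sum in 8 pairs and SCD in 7, and INSIG1 lies below 0 in all 9.

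The start window of SCD (RefSeq, chr10:100346983-100347282, plus strand, GRCh38.p14) is shown because SCD carried the largest pair differences at high counts. It holds CCAAT matches at bases −229 and −186, in capitals.
SCD: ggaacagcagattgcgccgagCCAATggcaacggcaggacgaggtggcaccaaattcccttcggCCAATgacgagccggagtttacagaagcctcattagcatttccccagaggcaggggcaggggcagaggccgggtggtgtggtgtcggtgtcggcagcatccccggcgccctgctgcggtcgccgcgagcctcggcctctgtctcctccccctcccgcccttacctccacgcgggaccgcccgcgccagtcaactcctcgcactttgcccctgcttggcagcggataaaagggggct

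INSIG1, the sterol-sensing anchor that keeps SREBPs in the endoplasmic reticulum and is itself an SREBP target, was lower in 9 of 9 pairs. It had 9.74, 12.5 and 10.3 CPM in shRNF213, against 13.8, 55.1 and 83.9 CPM in shControl of KKU-100 (−1.94, SE 0.40, adjusted p = 0.0990). In YSCCC it had 69.1, 31.9 and 20.8 CPM in shRNF213, against 143, 46.7 and 62.1 CPM in shControl (−1.06, SE 0.15, adjusted p = 0.00134). In HuCCT1 it had 78.3, 133 and 140 CPM in shRNF213, against 88.0, 195 and 143 CPM in shControl (−0.25, SE 0.11, adjusted p = 0.435). Averaged over the lines it fell by 1.09 on the log2 scale (SE 0.18, adjusted p = 0.00502), a call lost without the pairing (adjusted p = 0.298). SREBF1 rose in YSCCC, with 313, 336 and 172 CPM in shRNF213, against 292, 212 and 128 CPM in shControl (0.40, SE 0.11, adjusted p = 0.0379), but not without replicate 2 (0.26, adjusted p = 0.267).

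Other genes of fatty acid metabolism were read from 12 lists of 155 genes, of which 154 were in the files. In KKU-100 0 of 139 tested passed, in YSCCC 16 of 146 (10.96%, beside 8.25% of all genes) and in HuCCT1 1 of 140 (0.714%, beside 0.14%). In YSCCC 10 of the 16 rose and 6 fell, where 3.69% of all genes rose and 4.56% fell. All 16 calls were lost without the pairing, and 6, 8 and 13 of them held without replicate 1, 2 and 3.

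The genes that rose in YSCCC included an uptake receptor, 2 oxidation genes and regulators. CD36 had 581, 694 and 130 CPM in shRNF213, against 306, 415 and 62.6 CPM in shControl (0.90, SE 0.091, adjusted p = 0.000177), higher in each pair although replicate 3 lay far below the others in both groups. SLC27A2, a very-long-chain acyl-CoA synthetase, had 5.03, 7.72 and 8.51 CPM in shRNF213, against 3.30, 3.84 and 4.39 CPM in shControl (0.86, SE 0.18, adjusted p = 0.00964). DECR1, an auxiliary enzyme of the oxidation of unsaturated fatty acids, rose by 0.58 (SE 0.12, adjusted p = 0.00935) and PPARGC1A, a coactivator of oxidative genes, by 0.52 (SE 0.12, adjusted p = 0.0223). RXRA, the partner of the nuclear receptors LXR and PPAR, rose by 0.63 (SE 0.091, adjusted p = 0.00133) and ELOVL4, an elongase of very long chains, by 0.62 (SE 0.11, adjusted p = 0.00610). ME1, which supplies NADPH, PRKAA1, a catalytic subunit of AMPK, and DEGS1, the ceramide desaturase, rose by 0.43, 0.41 and 0.36 (adjusted p = 0.0396, 0.0150 and 0.0453). Of 19 oxidation genes tested there, 2 rose and none fell, with a median of 0.16 beside 0.00545 for all genes.

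Among those that fell in YSCCC were other desaturases and acyl chain remodelling enzymes. FADS3 had 43.5, 32.9 and 143 CPM in shRNF213, against 93.0, 59.5 and 185 CPM in shControl (−0.77, SE 0.13, adjusted p = 0.00286). SCD5, the second stearoyl-CoA desaturase, had 14.0, 12.6 and 13.9 CPM in shRNF213, against 36.7, 14.4 and 21.03 CPM in shControl (−0.74, SE 0.18, adjusted p = 0.0267). ACSS1, a mitochondrial acetyl-CoA synthetase, fell by 0.86 (SE 0.16, adjusted p = 0.00561), LPCAT1 by 0.50 (SE 0.14, adjusted p = 0.0395) and MBOAT7 by 0.30 (SE 0.085, adjusted p = 0.0468). LPCAT1 and MBOAT7 reacylate lysophospholipids. In HuCCT1 the 1 gene that passed was DEGS1, with 94.3, 99.7 and 102 CPM in shRNF213, against 61.2, 54.4 and 71.7 CPM in shControl (0.67, SE 0.093, adjusted p = 0.0351), a call lost without replicate 1 or without the pairing.

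**Figure D5:**
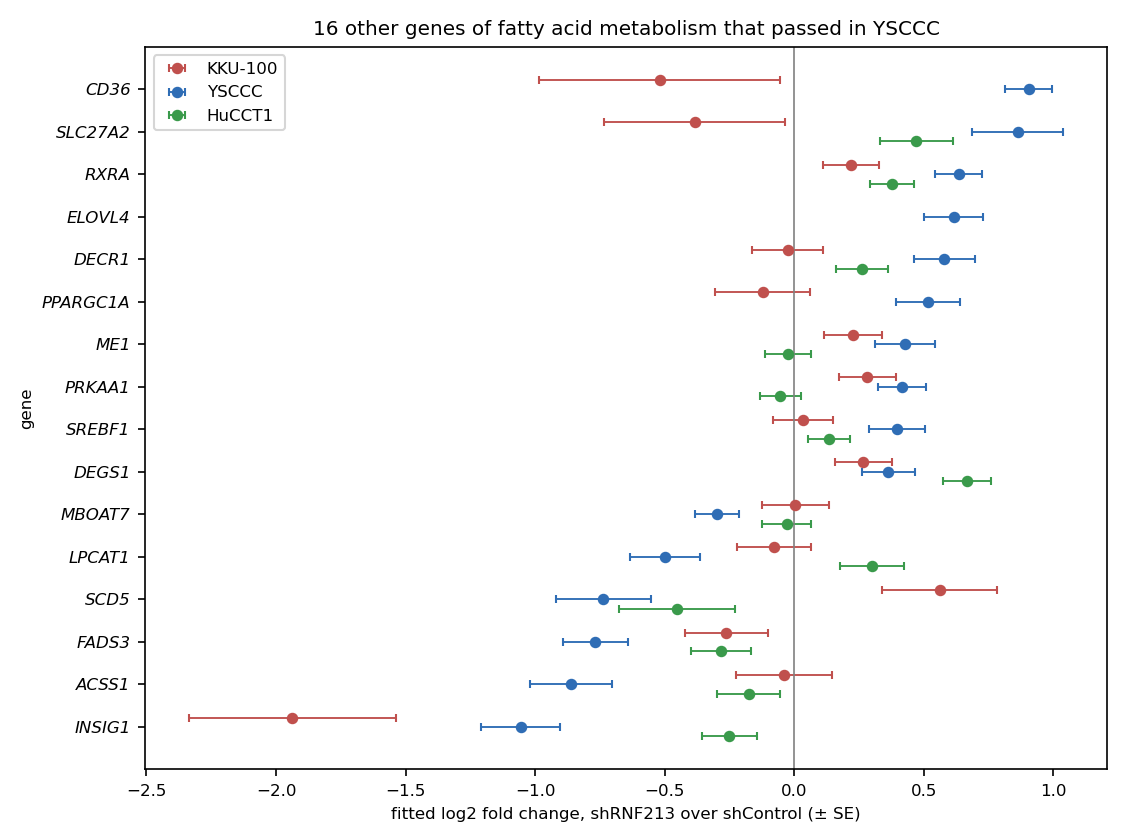
Fitted log2 fold changes (shRNF213 over shControl, ± SE, 3 pairs per line) of the 16 other fatty acid metabolism genes called in YSCCC, with the same genes in KKU-100 and HuCCT1 where tested. INSIG1 (−1.06) and CD36 (0.90) bound the YSCCC values, and CD36, ELOVL4 and PPARGC1A were too low for the test in HuCCT1, as was ELOVL4 in KKU-100.

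Averaged over the 3 lines, 9 of 149 genes of these lists passed (6.04%, beside 2.9% of all genes), 7 higher and 2 lower, where 1.43% and 1.47% of all genes were. DEGS1 rose by 0.43 (SE 0.061, adjusted p = 0.00198) and RXRA by 0.41 (SE 0.052, adjusted p = 0.000870), each in 9 of 9 pairs. LPCAT2, another lysophospholipid acyltransferase, rose by 0.49 (SE 0.087, adjusted p = 0.00838), also in 9 of 9 pairs, and FABP5, a fatty acid binding protein, by 0.49 (SE 0.11, adjusted p = 0.0342) in 8 of 9, a call lost with limma-voom (0.50, adjusted p = 0.0635). ME2, TECR and PRKAA1 rose by 0.28, 0.22 and 0.22 (adjusted p = 0.0463, 0.0432 and 0.0406). PRKAA1 was higher in 3 of 3 pairs in KKU-100 and in YSCCC but lower in 3 of 3 in HuCCT1 (−0.054, SE 0.078). FADS3 fell by 0.44 (SE 0.094, adjusted p = 0.0232) in 8 of 9 pairs, and INSIG1 as above. Without the pairing DEGS1 alone of the 9 was called, and leaving out 1 pair kept 4 to 8 of them. Between lines, 3 of these genes had hairpin effects that differed for KKU-100 minus YSCCC, namely CD36 (−1.60, SE 0.38, adjusted p = 0.0455), LIPT1 of lipoate attachment (−1.02, SE 0.25, adjusted p = 0.0472) and the carnitine carrier SLC25A20 (0.99, SE 0.20, adjusted p = 0.0214), a share of 2.01% beside 2.63% of all genes. LIPT1 and SLC25A20 were chosen after their values were seen.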

How the data were processed

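Libraries were made with the TruSeq mRNA protocol from 750 ng of RNA, per the labels' protocols. Build GRCh38 and the tools HTSeq 0.6.1p1, StringTie 2.1.6, STAR 2.5.1b, DESeq2 1.34.0, FastQC 0.11.9 and Picard 1.139 are listed in the submitters' processing notes, with no roles and no strand setting. The authors, per the file headers, deposited raw counts per gene, TPM and FPKM for each library. Tests used the raw counts, the deposited TPM was used to compare levels between genes, and the deposited FPKM to check that order. Levels in CPM were computed from the counts with TMM-scaled totals over all 18 libraries.

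Each line's 3 shRNF213 and 3 shControl libraries were tested with the quasi-likelihood test of edgeR 4.0.16 (TMM scaling, filterByExpr with minimum count 10 and minimum total 15) under R 4.3.3, with the replicate number as block. The 9 shControl libraries were fitted together for levels between lines. All 18 libraries, with 9 line-by-replicate blocks, gave the mean effect and the differences of effects. Adjusted p-values are Benjamini-Hochberg values over all genes tested, from two-sided tests, with a threshold of 0.05, and SE is the log2 fold change over the root of the F statistic. They measure the spread between cultures of 1 stable line per hairpin. The block was set with the choice of these genes, which names the replicate number as pair, and the numbers were also checked. Same-numbered shRNF213 and shControl libraries deviated together over genes with a mean log2 CPM above 3. Their correlations were 0.730, 0.596 and 0.396 in KKU-100, 0.817, 0.724 and 0.902 in YSCCC and 0.790, 0.717 and 0.766 in HuCCT1. Some different-numbered libraries also did so. In YSCCC, shRNF213 replicate 1 with shControl replicate 2 gave 0.656, and shRNF213 replicate 2 with shControl replicate 1 gave 0.516. In KKU-100, shRNF213 replicate 2 with shControl replicate 3 gave 0.128. The other different-numbered correlations were negative. Deviations were taken from the mean of the 3 libraries of each group. A positive correlation with 1 library therefore forces a negative one with another, so the negative values are no separate sign of pairing. The labels do not say what a number marks.

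The 10 genes, the pathway, marker and state lists and the tests were chosen with earlier results of these data known. From the pathway lists the text names up to 4 genes per list that passed and averaged 1 CPM or more, and for shControl levels a set of genes named whatever their values. Alternatives were no block (for shControl, a block across lines), DESeq2 size factors, no low-count filter, DESeq2 1.42.0, limma-voom (limma 3.58.1) and leaving out each replicate. The scripts were tested on simulated data. Gene overlaps come from GENCODE 29 and start windows from RefSeq on GRCh38.p14; figures were drawn with matplotlib 3.10.9.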

Additional observations from a re-analysis of the deposited data

Results flagged for a closer look

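FADS2 is singled out because its hairpin effect differed between 2 lines by the test of the difference itself. The effect in KKU-100 minus that in YSCCC was 1.31 on the log2 scale (SE 0.32, adjusted p = 0.0445), from 3 of 3 higher pairs in KKU-100 (22 to 133 counts per library) and 2 of 3 lower pairs in YSCCC (93 to 577 counts). The difference was 1.41 with limma-voom (adjusted p = 0.0648). Whether the low counts or the overlap with FADS1 had a part in it was not tested.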

How the results depend on the processing

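Of 232 alternative values of the 16 member values that passed, 212 kept direction and call, 20 kept direction and lost the call, and 0 changed sign. Of 1010 alternative values of members that had not passed, 68 changed sign, all from log2 fold changes of at most 0.39 in size. In YSCCC 1 member passed with the replicate block and 0 without it, and 2 passed with no low-count filter (ELOVL5, and FADS2 at −0.47, adjusted p = 0.0461). Leaving out a replicate gave 0 to 3 members in YSCCC (SCD and FADS2 joined without replicate 2, FASN without replicate 3), 0 to 2 in HuCCT1 (ACLY and FASN without replicate 2) and 0 to 1 in KKU-100 (SCD without replicate 1). For the difference KKU-100 minus YSCCC, 1 member passed with the block, 0 with no replicate block, 0 with limma-voom and 0 to 2 when a replicate was left out (without KKU-100 replicate 3, ELOVL5 and ACSL4 in place of FADS2). Between shControl lines, besides the lost calls of FADS2, ELOVL5 and FASN given above, ACACA passed for YSCCC over HuCCT1 without HuCCT1 or YSCCC replicate 1, ELOVL6 without YSCCC replicate 1 and FASN without YSCCC replicate 3. For KKU-100 over YSCCC, SCD passed with no low-count filter or without KKU-100 replicate 1, ACSL4 without KKU-100 replicate 1, and ELOVL5 without YSCCC replicate 3 or with a replicate block across lines. The cause of these changes was not tested. FADS1 in KKU-100, at 3 to 14 counts per library, is at the limit of what this depth resolves.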
